A study of Mus musculus with 6 samples.

Results

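RNA polymerases, the Mediator complex, the TATA-binding protein associated factors (TAFs) and the general transcription factors were followed in mouse oocytes at the germinal vesicle (GV) stage, the stage at which a grown oocyte is still arrested in meiosis. The genes were all rows of the authors' deposited table whose symbol began with Polr, with Med or Taf and a digit, or with Gtf2 or Gtf3. Taf4b and Gtf2a1l, germ cell forms, were left out of the set. The rule gave 98 of 10896 genes, and no measured value was used to choose them. The study sequenced 6 samples of 50 oocytes each from (C57BL x CBA) F1 females with no genetic change given in the labels. The 3 samples of the in vitro group held oocytes from cultured follicles, which collagenase had freed from ovaries of donors 10 to 12 days of age. Membrane inserts carried these follicles, in a medium based on MEM-alpha that contained insulin with transferrin and selenium, fetal bovine serum and the hormone FSH. The 3 samples of the in vivo group held oocytes that had reached full size in the ovary and were released by needle from females aged 7 to 11 weeks, into M2 medium with dbcAMP, a cyclic AMP analogue that holds oocytes at the GV stage. Ovaries of several females were pooled for culture, and donor age and culture cannot be told apart in any comparison here.

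Each nuclear RNA polymerase transcribes its own class of genes: Pol I the large ribosomal RNA precursor, Pol II the messenger RNAs, and Pol III the transfer RNAs, the 5S ribosomal RNA and other short RNAs. Pol II is placed at promoters by TFIID, which is built from the TATA-binding protein and TAFs, and by the factors TFIIA, TFIIB, TFIIE, TFIIF and TFIIH, while Mediator passes signals from bound activators to the polymerase through its head, middle, tail and kinase modules. SL1 serves Pol I in the place of TFIID, and TFIIIA and TFIIIC serve Pol III. Growing oocytes transcribe actively and store messenger RNA, and transcription then falls silent as they reach full size.

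The 98 genes did not shift as a block between the groups. By the posterior probability of equal expression (PPEE) in the authors' deposited table, called where below 0.05, 16 of the 98 genes (16.3%) differed, against 15.1% of all genes in the table. Of these, 8 were higher in vitro, against 6.75% of all genes, and 8 were lower in vitro, against 8.31%. The genes called lower in vitro were the large Pol I subunits Polr1a and Polr1b, the large Pol III subunit Polr3a, the TFIIIC subunit Gtf3c1, the SL1 subunit Taf1a, the Mediator subunit Med1, the TFIID subunit Taf8 and the TFII-I relative Gtf2ird1. Those called higher were the small Pol III subunit Polr3k, the Mediator subunits Med7 and Med14, the TFIID subunits Taf5 and Taf9, the SAGA subunit Taf6l and the general factors Gtf2f2 and Gtf2h2. Pol III, Mediator and TFIID thus had calls in both directions. None of the 13 Pol II genes was called. The median log2 ratio of in vitro over in vivo was 0.11 for the 98 genes and 0.02 for all genes of the authors' deposited table, and its SD across genes was 0.62 and 0.63. On that ratio 61 of the genes (62.2%) were on the higher side in vitro, against 51.1% of all genes. Other call rules were also counted. At a PPEE below 0.01, 15 genes were called, 8 higher and 7 lower, against 11.3%, 4.78% and 6.53% of all genes. With a minimum of 1.5-fold added, 11 were called, 5 higher and 6 lower, against 10.1%, 4.42% and 5.69%. When the set was widened until its mean PPEE reached 0.05, 27 were called, 16 higher and 11 lower, against 22.9%, 11.1% and 11.8%. The differences were mostly small: 68 genes were under 1.5-fold between the authors' means, 8 were at least 2-fold (against 11.1% of all genes), and 3 of these were not called (against 6.59%). The called genes had a median fold of 1.59 and a lowest of 1.27. All 98 genes had a mean of at least 10 normalised reads over both groups. Values are shares of sequenced RNA, so that less RNA per cell and fewer cells of a type cannot be told apart.

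**Figure D1:**
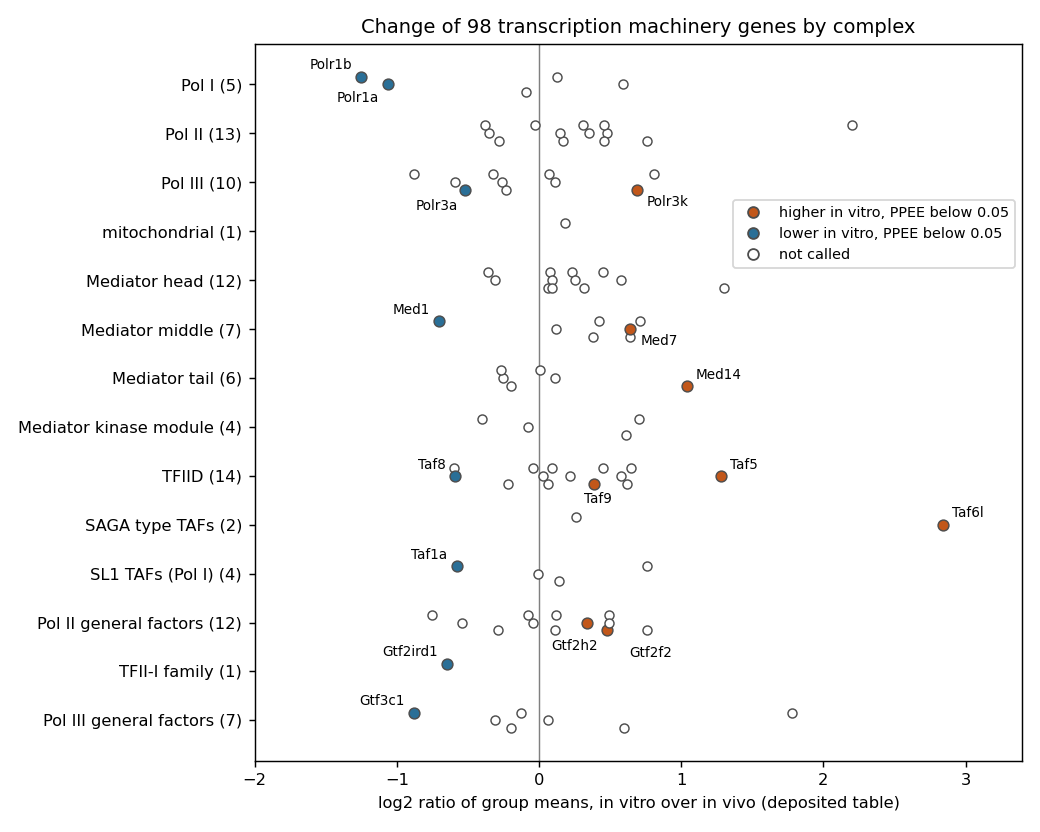
Log2 ratio of the authors' group means, in vitro over in vivo, for each of the 98 genes (points), with 1 row per complex and the number of genes in brackets; filled points have a PPEE below 0.05. Filled points lie on both sides of 0, both in the Pol I row lie to the left, the Pol II row has none, and Taf6l lies farthest to the right at 2.84.

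The deposited values are group means. For 65 of the 98 genes, the whole reads of each library could be solved from both means (means of up to 600 normalised reads in both groups), and these give the spread between libraries. The libraries are named A, B and C within each group, in order of size factor and not of the replicate numbers in the labels. In 27 of these 65 genes (41.5%) the libraries of the groups did not overlap, against 33.8% of the 8169 genes solved in this way. All in vitro libraries were higher in 19 genes (29.2%), against 18.1% of the solved genes, and all were lower in 8 (12.3%), against 15.8%. In vitro library B stood apart for these genes: its median log2 difference from the in vivo mean was 0.35 over the 65 genes and 0.08 over all solved genes, where library A had 0.11 and 0.03 and library C 0.16 and 0.04. It was the highest of the 6 libraries in 43.1% of the 65 genes and in 31.5% of all solved genes. With all libraries, 61.5% of the 65 genes were on the higher side in vitro and their median log2 change was 0.16. Leaving out each library in turn gave shares from 56.9% (without in vitro library B) to 69.2% (without in vitro library C) and medians from 0.08 (without in vitro library B) to 0.25 (without in vitro library C, and also without in vivo library A). Over all solved genes these ran from 52.2% to 53.8% and from 0.03 to 0.06. The genes varied more between the cultured samples, with a median coefficient of variation of 22.7% in vitro and 14.1% in vivo, beside 22.6% and 17.0% over all solved genes.

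limma voom was run on these reads as a check of the calls with a spread between libraries, 2-sided and with Benjamini-Hochberg adjustment over all solved genes. Among the 41 genes with both means up to 200, limma voom called 2 (4.88%) at an adjusted p below 0.05, against 6.37% of all solved genes. They were Taf6l, higher in vitro (3.55% of all solved genes), and Polr1b, lower (2.83%), and 8 of the 41 had an unadjusted p below 0.05, against 26.1%. Among the 65 genes with means up to 600 it called 8 (12.3%, against 10.3% of all solved genes). At an unadjusted p below 0.05 limma voom had 21 of the 65 genes, against 29.8% of all solved genes. Called higher in vitro were Taf6l, Taf5, Med14 and Med13l (4 genes, against 5.57% of all solved genes), and lower were Polr1b, Gtf3c1, Gtf2ird1 and Polr3b (4 genes, against 4.77%). The PPEE also called 6 of these 8, all but Med13l and Polr3b. These calls rest on few libraries: with means up to 600, limma voom called none of the 65 genes without in vivo library A or without in vivo library B, 1 without in vitro library C and 20 without in vitro library A, while 50, 81, 63 and 2079 of all solved genes were called. In the 2 fits with no called member, 15 and 18 of the 65 genes had an unadjusted p below 0.05, against 23.4% and 21.2% of all solved genes. Without in vitro library C only Taf6l was called, without in vitro library B the calls of Med13l, Polr1b and Polr3b were lost, and without in vivo library C those of Gtf2ird1 and Med13l. Of the 16 genes called by PPEE, 7 had reads solved in both groups. In all 7 the libraries of the groups did not overlap, against 33.8% of all solved genes. The 7 were chosen by a call made on the same libraries, so this is a description and no support for the calls. The other 9 had a mean above 600 in at least 1 group, and for them no spread between libraries can be given in both groups. Polr1a and Med1 had reads solved in vitro only, and Gtf2f2 and Polr3k in vivo only.

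**Figure D2:**
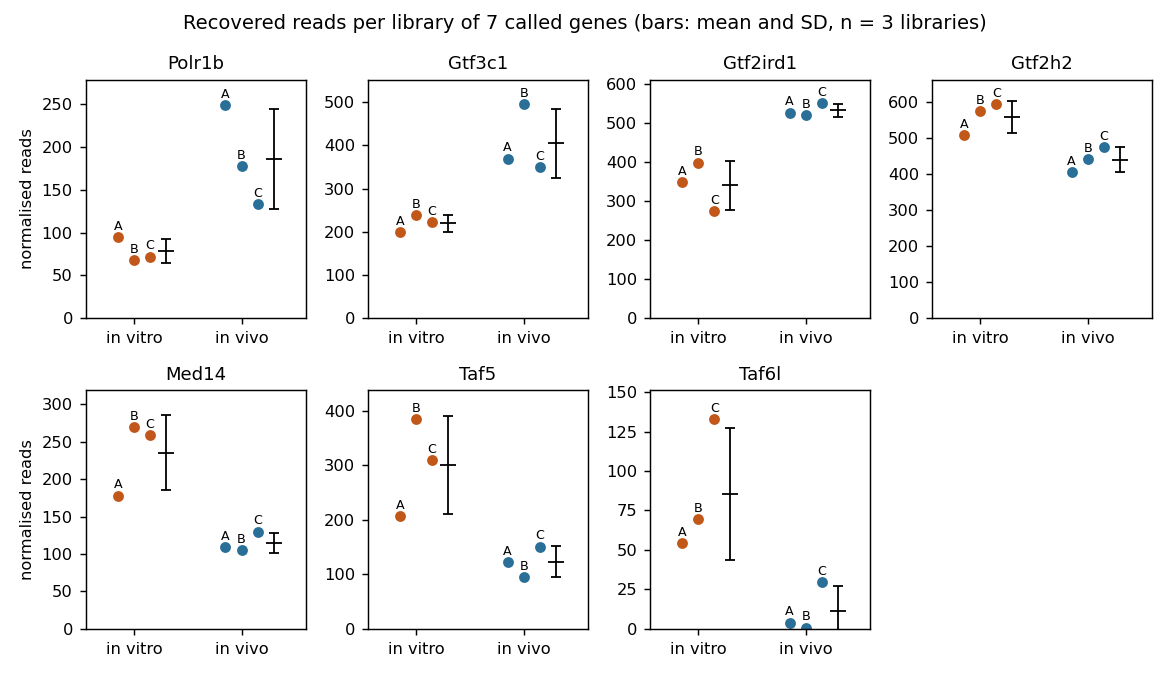
Normalised reads in each recovered library (points A, B and C) for the 7 genes that were called by PPEE and solved in both groups; the horizontal tick and bar give the mean and SD of 3 libraries, cut at 0, and every axis starts at 0. In each panel the in vitro points all lie on one side of the in vivo points, above them in Gtf2h2, Med14, Taf5 and Taf6l and below them in Polr1b, Gtf3c1 and Gtf2ird1.

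For the 6 genes called by both PPEE and limma voom, the 120 bases before the start of transcription are shown to let promoters of genes that moved in opposite directions be read side by side. They are RefSeq sequences of build GRCm38.p6, written 5′ to 3′ on the strand of the gene and ending at the base before the start. Capitals mark any of 6 short motifs, searched on both strands. TATAAA stands for the TATA box, which the TATA-binding protein recognises. The letters CCAAT were used for the box of that name, bound by NF-Y. The GC box, a site of Sp1, was searched as GGGCGG. ETS proteins were represented by the core CCGGAAG. For NRF1 the letters were GCATGCG. The core used for YY1 was ATGGCG. No motif contains another. The first 3 genes were higher in vitro and the last 3 lower.
Taf6l, chr19:8786317-8786436, minus strand: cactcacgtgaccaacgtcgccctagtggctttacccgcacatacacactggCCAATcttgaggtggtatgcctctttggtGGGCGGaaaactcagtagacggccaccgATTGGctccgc
Taf5, chr19:47067628-47067747, plus strand: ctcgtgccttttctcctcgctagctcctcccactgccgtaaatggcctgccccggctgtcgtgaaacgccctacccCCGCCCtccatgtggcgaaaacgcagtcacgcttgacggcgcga
Med14, chrX:12761974-12762093, minus strand: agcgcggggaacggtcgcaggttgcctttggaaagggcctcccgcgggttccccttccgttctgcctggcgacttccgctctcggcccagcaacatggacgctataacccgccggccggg
Gtf2ird1, chr5:134456717-134456836, minus strand: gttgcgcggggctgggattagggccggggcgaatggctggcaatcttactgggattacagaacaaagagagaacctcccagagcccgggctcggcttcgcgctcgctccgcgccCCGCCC
Gtf3c1, chr7:125707689-125707808, minus strand: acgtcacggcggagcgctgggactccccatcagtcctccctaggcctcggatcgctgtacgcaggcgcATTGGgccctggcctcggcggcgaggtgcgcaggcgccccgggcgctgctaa
Polr1b, chr2:129100876-129100995, plus strand: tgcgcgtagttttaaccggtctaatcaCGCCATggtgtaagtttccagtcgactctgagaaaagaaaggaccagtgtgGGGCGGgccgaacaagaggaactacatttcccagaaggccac
The 6 windows shared no single arrangement. Taf6l had a CCAAT box 68 and another 11 bases before the start with a GC box at 39 between them, and Taf5 had a GC box at 44. Med14 had none of the 6 motifs. Gtf2ird1 had a GC box 6 bases before the start, Gtf3c1 a CCAAT box at 52, and Polr1b a YY1 core at 93 and a GC box at 42. Of the 98 genes, 85 had a promoter in the RefSeq table. The GC box was in 47.1% of these 85 windows and in 49.1% of the windows of the other genes of the authors' table, and the CCAAT box in 25.9% and 26.7%. The ETS core was in 18 of the 85 windows (21.2%), in 11.0% of those of the other genes of the table and in 5.15% of all 27025 RefSeq windows. The TATA box was in 5 of the 85 windows (5.88%), in 2.71% of those of the other genes of the table and in 6.76% of all RefSeq windows. Of the 15 called genes with a window, 8 had the GC box, 7 the CCAAT box, 1 the ETS core and 1 the YY1 core, and none had the TATA box or the NRF1 core. A match of letters is a description and shows no binding.

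Pol I had 2 calls among its 5 genes, both lower in vitro. Polr1a, its largest subunit, and Polr1b, with which it forms the catalytic centre, were 2.09-fold and 2.38-fold lower by the authors' means (350.3 against 733, and 78.3 against 187 normalised reads). Their PPEEs in the authors' deposited table were 1.62e-07 and 0.00732. The Polr1b libraries had 94.7, 68.4 and 72.0 normalised reads in vitro (78.3 ± 14.2, SD, n = 3) and 249, 178 and 133 in vivo (187 ± 58.4, SD, n = 3). Each in vivo library was above each in vitro library, with the widest spread among the in vivo ones. limma voom gave Polr1b a log2 change of -1.23 with a standard error of 0.27 (Benjamini-Hochberg adjusted p = 0.0173), and it kept its call in 2 of 6 fits that left out 1 library, with adjusted p from 0.00325 to 0.0853. For Polr1a the in vitro libraries had 466, 286 and 299 normalised reads, all under the authors' in vivo mean of 733. The other 3 subunits were not called. Polr1d, a small subunit shared with Pol III, had means of 405 in vitro and 268 in vivo, with in vitro libraries (322, 538 and 356) all above the in vivo ones (281, 282 and 242) but no call. Polr1c, also shared with Pol III, had 119 and 108, and Polr1e, a subunit of the part that aids initiation and elongation, 237 and 253. Per kb of gene length, averaged over both groups, Polr1d had the highest level of the 5 genes at 323 normalised reads and Polr1b the lowest at 33.0.

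SL1 had 1 call among 4 genes. Taf1a, a TAF of SL1, was lower in vitro, with means of 3023 and 4528. In the authors' deposited table its PPEE was 2.83e-04 and its log2 ratio, as in vitro over in vivo, -0.58. At 1489 normalised reads per kb it was far above the other SL1 TAFs, of which Taf1c was lowest with 7.01. Taf1b had means of 552 and 501, Taf1c 28.8 and 16.8, and Taf1d 74.9 and 75.5, with no call. Rrn3, the factor that couples Pol I to SL1 and is no member of the set, was 1.81-fold lower in vitro (891 against 1613), with 2.85e-08 as its PPEE in the authors' deposited table. Ubtf, which binds ribosomal DNA, had 221 and 244, and Ttf1, the terminator protein, 8.27 and 17.1, neither called.

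Pol II showed no call by PPEE among its 13 genes, against 15.1% of all genes in the table. In limma voom none of the 9 solved ones was called with means up to 600 either, against 10.3% of all solved genes. An unadjusted p below 0.05 was found for 1 of the 9, against 29.8%. Without in vitro library A, 2 of the 9 were called, where 2079 of all 8169 solved genes were. Polr2a, the largest subunit, whose tail is phosphorylated during transcription, had means of 44.9 in vitro and 54.5 in vivo, and its libraries overlapped (33.1, 38.4 and 63.3 against 64.7, 67.3 and 31.6). Polr2b, its partner in the catalytic centre, had 1044 and 1333. The RNA levels of the Pol II genes differed 324-fold per kb, from Polr2d, a stalk subunit, at 1765 normalised reads to Polr2m at 5.45. Polr2m encodes a protein that joins a part of Pol II, and the next lowest gene was Polr2a at 8.57. Polr2m was also 5.16-fold higher in vitro by the means without a call, with 0.0931 as its PPEE in the authors' deposited table. Its libraries held 8, 34 and 14 reads in vitro and 3, 4 and 5 in vivo, and without in vitro library B the fold was 3.19. On the normalised scale these were 7.35, 35.2 and 17.4 against 2.43, 3.54 and 5.65, with no overlap but few reads.

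In 8 of the 9 Pol II genes solved by library, all but Polr2a, in vitro library B was the highest of the 6 libraries. Polr2k, shared by all 3 nuclear polymerases, had 90.1, 206 and 96.8 normalised reads in the cultured libraries A, B and C, beside 87.3, 84.1 and 59.9 in vivo. Polr2l, shared in the same way, had 32.2, 78.8 and 34.7 against 39.6, 35.4 and 30.5, and Polr2f, also shared, 24.8, 45.6 and 24.8 against 29.9, 23.0 and 21.5. Polr2j, a Pol II subunit of the assembly platform, had 131, 279 and 160.0 against 174, 124 and 115. In these 4 genes libraries A and C lay within or just above the in vivo range. Polr2e, also shared by the 3 polymerases, had 183, 252 and 150.1 against 204, 213 and 178, and Polr2h, shared in the same way, 6.43, 21.8 and 3.72 against 21.0, 9.74 and 11.3. Polr2i, found in Pol II alone, had 73.5, 99.5 and 54.6 against 93.8, 65.5 and 46.3. In these 3 genes library C was the lowest in vitro, and library B exceeded the highest in vivo library by a smaller factor than in the 4 genes above. The pattern was singled out after the values were seen. Of the 50-base stretches of Polr2k and Polr2l, 21.6% and 21.0% also occur in other genes. Antisense exons, chiefly of Tbcb, cover 26.8% of the exon bases of Polr2i.

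Pol III had calls in both directions. Polr3a, its largest subunit, was 1.44-fold lower in vitro (1501 against 2157), and Polr3k, a small subunit that helps the enzyme cleave RNA and terminate, was 1.62-fold higher (896 against 554). Their PPEEs in the authors' deposited table were 0.0111 and 4.44e-16. At a PPEE threshold of 0.01 Polr3a was not called. The in vivo libraries of Polr3k had 516, 618 and 529 normalised reads, all below the authors' in vitro mean of 896. Polr3b, the partner of Polr3a, had 229, 109.9 and 129 in vitro and 358, 295 and 210.1 in vivo, where in vitro library A reached above in vivo library C. limma voom called it lower with a log2 change of -0.93 and a standard error of 0.27 (Benjamini-Hochberg adjusted p = 0.0439), but its PPEE in the authors' deposited table was 0.273. Without 1 library at a time it kept the limma voom call in 2 of 6 fits, with adjusted p up to 0.170. The paralogues Polr3g and Polr3gl, which replace each other in the enzyme, were both near the bottom of the set. Polr3g had means of 19.1 and 22.5 and Polr3gl of 9.15 and 11.6, equal to 6.25 and 6.53 per kb in vitro and 7.37 and 8.25 in vivo, and their libraries overlapped between the groups. The range within Pol III per kb ran from Polr3g at 6.81 to Polr3a at 391.

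The catalytic centre can be compared across the polymerases, a choice made after the values were seen. The log2 ratio of in vitro over in vivo in the authors' deposited table was -1.06 for Polr1a, -0.28 for Polr2a and -0.52 for Polr3a. For the partner subunits it was -1.25 for Polr1b, -0.35 for Polr2b and -0.88 for Polr3b. All 6 lay on the lower side, and the PPEE called 3, both of Pol I and Polr3a. All 6 are also long, from 3812 to 6145 bases. Length went with the change over the whole set: Spearman's correlation of gene length with the log2 ratio was -0.28 across the 98 genes and -0.16 across all genes, which share the same libraries and are not independent. The 37 genes over 3000 bases had a median log2 ratio of -0.20, against -0.07 for all genes of that length. For the 61 shorter genes the median was 0.17, against 0.08 for all shorter genes. The part of length in these results was not tested. Polrmt, the mitochondrial RNA polymerase, had means of 302 and 266 with overlapping libraries.

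**Figure D3:**
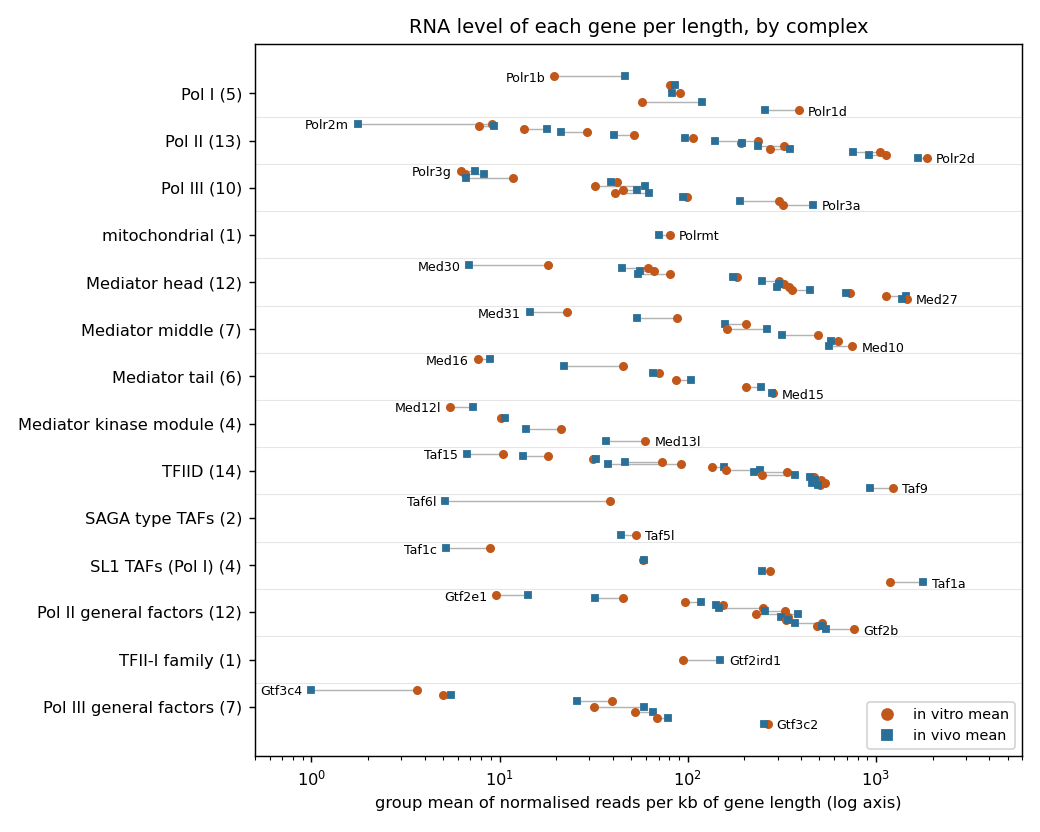
Group means of normalised reads per kb of gene length on a log axis for each gene, with in vitro means as circles and in vivo means as squares joined by a line; the genes with the highest and lowest level of each complex are labelled. Levels in the Pol II row spread over 324-fold, while the greatest fold between the groups for any gene was 7.48, for Taf6l.

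TFIIIC, which binds the internal promoters of transfer RNA genes and brings in TFIIIB, had 1 call among the 7 general factors of Pol III. Gtf3c1, its largest subunit, was 1.84-fold lower in vitro, and its PPEE in the authors' deposited table was 2.58e-04. Its libraries had 199, 238 and 222 normalised reads in vitro (220.0 ± 19.6, SD, n = 3) and 369, 496 and 349 in vivo (405 ± 79.8, SD, n = 3), so that the highest in vitro library was below the lowest in vivo one. limma voom gave a log2 change of -0.87 with a standard error of 0.18 (Benjamini-Hochberg adjusted p = 0.0161), which held in 3 of 6 fits without 1 library. Gtf3c3 and Gtf3c6, other TFIIIC subunits, were lower in all 3 in vitro libraries without a call (means 206 and 236, and 53.7 and 66.7). Gtf3c4, a subunit with acetyltransferase activity, went the other way by its means (25.5 against 7.02, 3.64-fold) where the authors' deposited table gave a PPEE of 0.145. Its libraries overlapped, with 23.9, 9.33 and 43.4 in vitro and 2.43, 6.20 and 12.4 in vivo, and the fold was 2.37 without in vitro library C and 5.92 without in vivo library C. Gtf3a, the 5S RNA gene factor, had 51.8 and 34.0, and 59.1% of its exon bases lie in exons of Mtif3 on the opposite strand. Gtf3c2 had the highest level per kb (260.1) and Gtf3c4 the lowest (2.32). Same-strand exons of other genes, chiefly Gm29609, cover 38.9% of the exon bases of Gtf3c2, so its level is uncertain.

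Mediator had 3 calls among 29 genes, 2 higher and 1 lower in vitro. Med14, the backbone that joins head, middle and tail, was 2.06-fold higher, and its PPEE in the authors' deposited table was 4.77e-05. The in vitro libraries of Med14 had 178, 269.5 and 259 normalised reads (236 ± 50.0, SD, n = 3) and the in vivo libraries 109, 105 and 129.9 (115 ± 13.5, SD, n = 3), with no overlap. limma voom gave Med14 a log2 change of 1.02 with a standard error of 0.22 (Benjamini-Hochberg adjusted p = 0.0166), held in 3 of 6 fits without 1 library. Med7, a structural subunit of the middle module, was 1.55-fold higher (1226 against 789) and Med1, the subunit bound by nuclear receptors, 1.63-fold lower (505 against 822). Their PPEEs in the authors' deposited table were 0.00121 and 2.35e-05. The in vitro libraries of Med1 had 588, 497 and 432, all below the authors' in vivo mean. Exons of an antisense gene, 2310031A07Rik, cover 21.2% of the exon bases of Med7, and the labels do not say that strand was kept, so its reads cannot be told apart there.

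The other genes of the head, middle and tail were not called. In the head module 10 of 12 genes were on the higher side in vitro, yet none was called, and the median log2 ratio in the authors' deposited table was 0.16. Med30, a head subunit found in animals and not in yeast, was 2.61-fold higher by its means (15.7 against 6.02) with 0.205 as its PPEE in the authors' deposited table. Its libraries had 8.27, 22.8 and 16.1 against 6.47, 7.09 and 4.52, which did not overlap. Med17, the scaffold of the head, had means of 4414 and 5664, the highest of any Mediator gene, and was not called. Level per kb ran from Med30 at 12.5 to Med27 at 1412 in the head, from Med31 at 18.7 to Med10 at 655 in the middle, and from Med16 at 8.27 to Med15 at 283 in the tail. Antisense exons of Gm26819 cover 92.8% of the exon bases of Med10, so its level is uncertain. For Med31 antisense exons, chiefly of 4930563E22Rik, cover 26.3%.

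The kinase module, which binds Mediator reversibly through Med13 or its paralogue, had no call by PPEE among 4 genes. Med13l was just outside, with means of 555 and 342 and 0.0529 as its PPEE in the authors' deposited table. Its libraries had 437, 686 and 543 normalised reads in vitro and 347, 310.0 and 368 in vivo without overlap, and limma voom called it higher by 0.68 on the log2 scale with a standard error of 0.18 (Benjamini-Hochberg adjusted p = 0.0328), in 1 of 6 fits without 1 library. Med13 had 192, 277 and 280.4 against 149, 187 and 155, also without overlap and without a call by either rule. Med12, which activates the kinase, had means of 86.3 and 90.9, and its paralogue Med12l 56.1 and 74.4, both with overlapping libraries. Med13l had the highest level per kb (48.2) and Med12l the lowest (6.35). The kinase itself and its cyclin, Cdk8 with 263 and 167 and Ccnc with 229 and 223, were not called.

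TFIID had 3 calls among 14 genes. Taf5, a scaffold subunit with WD40 repeats, was 2.44-fold higher in vitro, where the authors' deposited table gave a PPEE of 0.00330. The Taf5 libraries had 206, 385 and 309 normalised reads in vitro (299.8 ± 89.7, SD, n = 3) and 123, 94.8 and 151 in vivo (123 ± 28.3, SD, n = 3). No library overlapped, and limma voom gave a log2 change of 1.26 with a standard error of 0.26 (Benjamini-Hochberg adjusted p = 0.0136), held in 3 of 6 fits without 1 library. Taf8, which brings Taf10 and Taf2 into TFIID, was 1.51-fold lower (686 against 1033), with 7.70e-07 as its PPEE in the authors' deposited table. Taf9, a histone-fold subunit of TFIID and SAGA, was 1.31-fold higher (1517 against 1156), where the authors' deposited table gave a PPEE of 0.00191. Of the exon bases of Taf9, 73.8% lie in exons of Ak6 on the same strand, and 68.6% of its 50-base stretches also occur there, so the reads of both genes cannot be told apart. Its paralogue Taf9b had means of 1291 and 1211, with no call, which per kb is 508 and 477 against 1225 and 933 for Taf9.

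Among the remaining TFIID genes, Taf13, a histone-fold partner of Taf11, had libraries of 346, 510.0 and 440.4 in vitro and 317, 258 and 293 in vivo, without overlap and without a call. Taf6, a core histone-fold subunit, had 492, 263 and 335 against 528, 566 and 558, also without overlap, and its limma voom Benjamini-Hochberg adjusted p was 0.0509. Antisense exons, chiefly of Ap4m1, cover 26.5% of the exon bases of Taf6. Taf7, which restrains the acetyltransferase activity of Taf1, had means of 1664 and 1634. Taf9 had the highest level per kb of the 14 genes (1079) and Taf15, an RNA-binding protein, the lowest (8.60). Taf4b, the germ cell paralogue of Taf4a left out of the set, had means of 87.5 in vitro and 55.6 in vivo without a call, beside 323 and 206 for Taf4a. Per kb this was 17.0 and 10.8 for Taf4b and 73.1 and 46.7 for Taf4a. The TATA-binding protein Tbp had means of 917 and 787, and its paralogues Tbpl1 65.4 and 67.1 and Tbpl2, the oocyte form, 78.8 and 101, none called.

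Taf6l had the greatest fold of the 98 genes. It is the counterpart of Taf6 in SAGA, a coactivator that acetylates histones, and was 7.48-fold higher in vitro, with 1.06e-04 as its PPEE in the authors' deposited table. The libraries had 54.2, 69.5 and 133 normalised reads in vitro (85.5 ± 41.6, SD, n = 3) and 4.04, 0.886 and 29.4 in vivo (11.4 ± 15.6, SD, n = 3). The in vivo libraries A and B stood on 5 and 1 reads and library C on 26, so most of the in vivo mean came from library C. Without in vivo library C the fold was 34.7, and without in vivo library B 5.12. limma voom gave a log2 change of 3.94 with a standard error of 0.78 (Benjamini-Hochberg adjusted p = 0.0135), and Taf6l kept its call in 4 of 6 fits without 1 library. Taf5l, the counterpart of Taf5 in SAGA, had 147, 157 and 159 in vitro and 129, 148 and 107 in vivo, which overlapped. So in the TFIID and SAGA pairs, Taf5 was called and Taf5l was not, while Taf6l was called and Taf6 was not; whether the members of a pair differ in their change was not tested.

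Of the 12 general factors of Pol II, 2 were called, both higher in vitro. Gtf2f2, the small subunit of TFIIF, was 1.40-fold higher (761 against 544), and Gtf2h2, a core subunit of TFIIH, 1.27-fold higher (558 against 439). Their PPEEs in the authors' deposited table were 0.00158 and 0.00164. The libraries of Gtf2h2 had 508, 573 and 592 in vitro and 404, 440.2 and 473 in vivo without overlap, while limma voom did not call it (Benjamini-Hochberg adjusted p = 0.121). The in vivo libraries of Gtf2f2 had 478, 553 and 602, all below the authors' in vitro mean. Gtf2h4, another TFIIH subunit, and Gtf2a2, the small subunit of TFIIA, were higher in all 3 in vitro libraries without a call (means 73.0 and 51.9, and 229 and 135), and Gtf2h3, also of TFIIH, was lower in all 3 without a call (259 and 315). Gtf2a1, which encodes the large subunits of TFIIA, had 1312 and 2205, and its PPEE in the authors' deposited table was 0.927. The germ cell form Gtf2a1l, left out of the set, was 1.53-fold lower in vitro (465 against 709) where the authors' deposited table gave a PPEE of 4.87e-12. Gtf2b, which sets the start site with Pol II, had the highest level per kb (654), and Gtf2e1, the large subunit of TFIIE, the lowest (11.9).

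Gtf2ird1 was the only gene of the TFII-I family in the set. It encodes a DNA-binding protein with helix-loop-helix-like repeats, and was 1.57-fold lower in vitro, with 1.91e-08 as its PPEE in the authors' deposited table. Its libraries had 348, 398 and 273 normalised reads in vitro (339.8 ± 63.0, SD, n = 3) and 526, 519 and 551 in vivo (532 ± 16.8, SD, n = 3), with no overlap and the wider spread in vitro. limma voom gave a log2 change of -0.65 with a standard error of 0.16 (Benjamini-Hochberg adjusted p = 0.0263), held in 2 of 6 fits without 1 library.

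**Figure D4:**
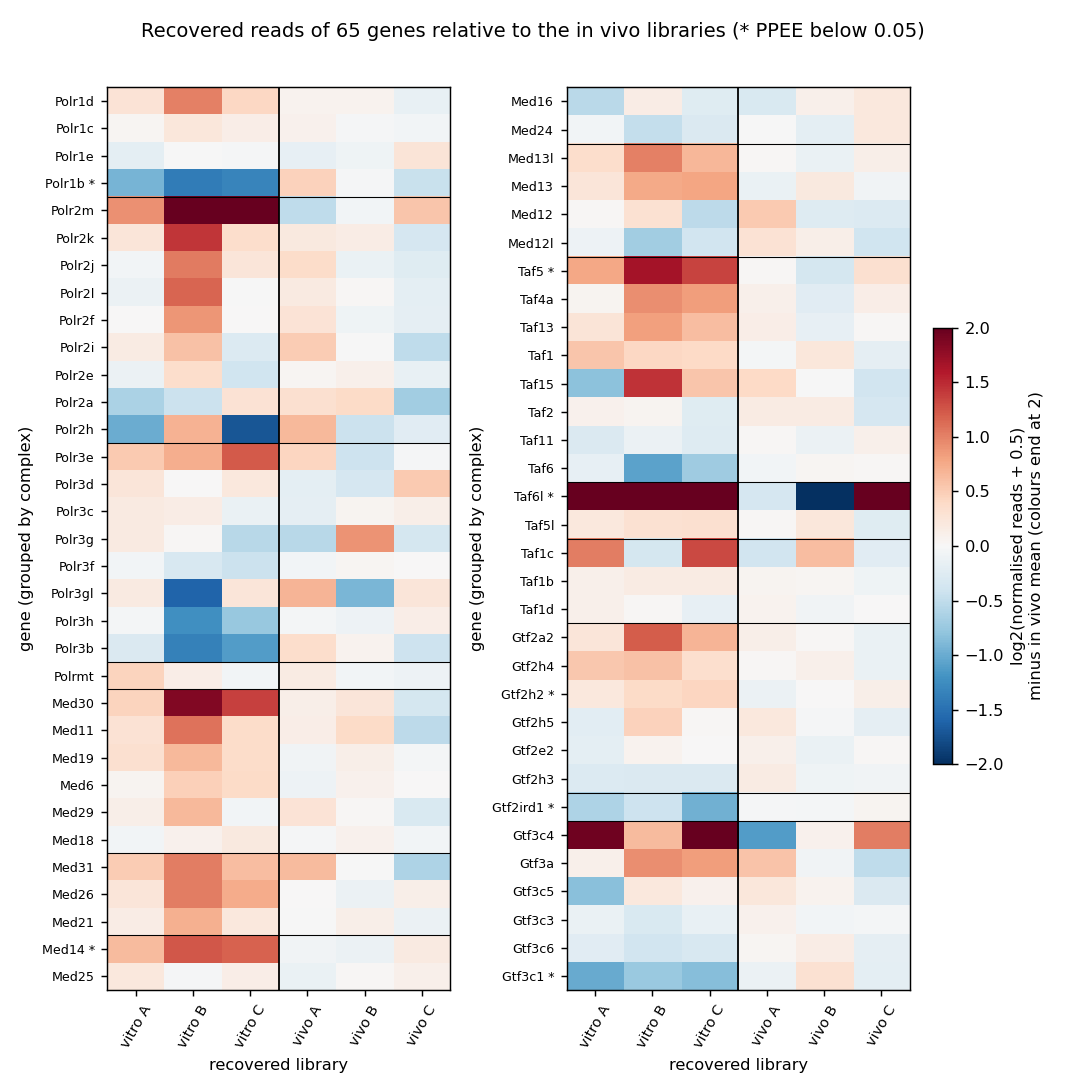
Recovered reads of the 65 solved genes in each library as log2(normalised reads + 0.5) minus the mean of the 3 in vivo libraries, in order of complex, with colours ending at 2 on either side; stars mark a PPEE below 0.05. The in vitro library B column is the reddest for many Polr2 and Med genes, and Polr1b and Gtf3c1 are blue in all 3 in vitro columns.

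Other genes of the transcription machinery were taken from a list of 72 names, of which 64 were in the table. The PPEE called 7 of the 64 (10.9%, against 15.1% of all genes), 5 higher and 2 lower in vitro, with a median log2 ratio of 0.11 in the authors' deposited table. Cdk9, the kinase that releases paused Pol II, was 7.17-fold higher (37.2 against 5.19) where the authors' deposited table gave a PPEE of 7.46e-06. Its libraries had 29.4, 54.9 and 27.3 normalised reads in vitro and 4.85, 6.20 and 4.52 in vivo. Its cyclins were not called, with means of 362 and 418 for Ccnt1 and 573 and 778 for Ccnt2. Cdk7 and Ccnh, the kinase and cyclin of TFIIH, were 1.38-fold and 1.40-fold higher, with PPEEs of 0.00514 and 0.00422 in the authors' deposited table. The elongation factor Ell2 and Larp7, which binds the RNA that holds Cdk9 inactive, were the other genes called higher, by 2.72-fold and 1.23-fold. Ctr9, a scaffold of the PAF1 elongation complex, was lower (231 against 347), as was Rrn3. With means up to 600, limma voom also called Cdk9 and Ctr9 (Benjamini-Hochberg adjusted p = 0.0136 and 0.0418). It did not call Ccnh, Ell2 or Larp7 (0.0671, 0.0543 and 0.198), and Cdk7 and Rrn3 were not solved. Mepce (437 against 210.3) and Rpap1 (183 against 322) were called by limma voom alone, at 0.0418 and 0.0359. Of all solved genes, limma voom called 10.3%.

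By level, the 98 genes lay above the middle of the table. Their median percentile in normalised reads per kb was 65.8 among all genes, with 17 genes in the top 10% and 3 in the bottom 10%. The order of the genes by mean was alike in both groups, with a Spearman correlation of 0.968 across the 98 genes and of 0.968 across all genes, which is a description, since the genes share libraries.

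All 10 oocyte markers of a fixed list were in the table, with sums of 117070.3 normalised reads in vitro and 167928 in vivo. Of them 2 were called in the authors' deposited table, both lower in vitro: Nlrp5, with means of 8330.2 and 24099.6, and Bmp15, with 14549.6 and 25668. Gdf9, Nobox, Zp1, Zp2 and Zp3 were also on the lower side in vitro and were not called. Mos (4537 against 3140.1), Oosp1 (2471 against 1375) and Figla (31.8 against 19.1) were on the higher side and were not called. Markers of granulosa cells, which surround the oocyte, were low, and their sum was higher in vitro. Of 13 such markers 6 were listed, with sums of 379 and 263. Over the libraries the sum ran from 319 to 453 in vitro and from 259 to 269 in vivo, highest in in vitro library B. The 1 oocyte marker solved by library, Figla, was highest in that library too (47.7, beside 26.7 in A and 21.1 in C). Amh, Amhr2, Foxl2, Inhbb, Fst, Gatm and Wt1 were not listed, and Fshr and Inha were called higher. Kitl, with means of 39.4 and 42.5, and Nr5a2, with 60.4 and 76.3, were on the lower side in the authors' deposited table and were not called. Theca markers, 2 of 5 listed, summed to 33.80 and 13.10, and they went in opposite directions. Hsd3b1 was called higher (28.0 against 3.34), and Cyp11a1 was on the lower side without a call (5.84 against 9.76). A single leukocyte marker of 3 had 14.15 and 10.76, and neither red cell marker was listed. Over the libraries, the theca and leukocyte sums were highest in in vitro library A (43.2 and 23.0). The part of these cells in the differences above was not tested. The labels do not state that each sample had its own donors, so a spread between libraries may be partly technical.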

How the data were processed

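RNA was sequenced from 6 samples of 50 oocytes; per the labels, 10 ng of RNA per sample was turned into amplified cDNA by a kit for low input. Reads were aligned with BWA to mm9, per the submitters' processing notes, with a version not given in the sources used here. The authors deposited, for 10896 genes, a signal per group, the mean of normalised reads over 3 samples, beside a log2 ratio (in vivo divided by in vitro) and a PPEE, read here from the usual meaning of that term and not a p-value. The deposited log2 ratio was matched by adding 0.599 to each mean. Its sign was turned, so that values are in vitro over in vivo, and folds are ratios of the means without that offset.

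The members and lists were chosen with earlier results of these data known. The named genes were every called member, those with a 2-fold or greater difference, the extremes per kb of each complex, and paralogue pairs. Others were named as stated.

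Each mean is a sum of whole reads times 1 step per library. Steps were found among low means and the reads solved where a single solution existed: for means up to 200 (5804 genes in both groups), as planned, and up to 600 (8169 genes), a range added after seeing the data. The size factor of libraries A, B and C was 1.09, 0.965 and 0.806 for the in vitro group, against 1.24, 1.13 and 0.885 for the other, and the solved reads per library summed to 905952 to 1362328. Between 200 and 600 a single solution was found for 96.5% of means in vitro and 96.7% in vivo. A wrong solution cannot be told from a right one for a single gene: means shifted at random by up to 0.02 still gave a solution in 16.3% and 23.3% of cases. limma 3.58.1 (voom, R 4.3.3) tested these reads, with each library size taken as proportional to its size factor. Python 3.11.15, numpy 2.4.6 and pandas 2.3.3 did the rest, and scripts were tested on simulated data, where the wider range did not solve every simulated group. Promoters came from RefSeq (GRCm38.p6) and exon overlaps from GENCODE models of GRCm38, not the build of the reads.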

Additional observations from a re-analysis of the deposited data

How the results depend on the processing

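In the 48 fits of single genes that left out 1 library, 28 lost the limma voom call. No log2 change turned its sign there, but the genes were chosen by their call on these same reads. In all of them but Polr3b the libraries of the groups did not overlap, so leaving out 1 library could hardly turn the sign. None of all 196 alternative values reversed, but most of them could not. Besides these fits, those were counts of genes, or the same group means under another pseudocount or threshold. The count of 16 genes called by PPEE was 27, with 16 higher in vitro in place of 8, when the set was widened until its mean PPEE reached 0.05, where 22.9% of all genes were called. With a further minimum of 1.5-fold, 5 genes were called higher. The 2 genes called by limma voom on means up to 200, 1 in each direction, became 8 with means up to 600, 4 higher and 4 lower; more genes were tested there. Leaving out each library in turn gave 0 to 5 calls with means up to 200 (0 to 3 higher, 0 to 2 lower) and 0 to 20 with means up to 600 (0 to 14 higher, 0 to 6 lower). The cause of these shifts was not tested. Other pseudocounts, median of ratios scaling, limma trend, a read minimum and centring on the median of all genes kept every count within 1.5 times and the median log2 ratio between 0.10 and 0.11. Of these, centring cannot change which genes the PPEE calls, and the minimum of reads over the libraries removed none of the 5804 genes. limma trend and that minimum were run only on means up to 200, where 2 genes were called. No paired analysis was possible because the table holds group means and the recovered libraries carry no replicate numbers. Depth limits genes such as Polr2m, Med30 and Gtf3c4, whose in vivo libraries held from 3 to 11 reads each. The 9 called genes without reads solved in both groups lack a spread between libraries in at least 1 group.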
